A study of Mus musculus with 12 samples.

Results

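The 8 cadherin genes described here (Cdh1, Cdh2, Cdh3, Cdh5, Cdh6, Cdh11, Cdh13 and Cdh16) were chosen by name as 8 of the 25562 genes counted in mouse proximal tubule (PT) cells. Of the 8, 7 passed the filter on low counts and were tested with 12974 genes in all. Cdh5, with 9 reads over all 12 libraries, did not pass. TβRII-/- PT cells had less Cdh2, Cdh6 and Cdh11 RNA than TβRII flox/flox PT cells and more Cdh16 RNA, and they had Cdh1 and Cdh13 RNA where TβRII flox/flox PT cells had almost none. Cdh3 was not called in either comparison of genotypes.

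Cadherins are calcium-dependent adhesion proteins, most of which span the membrane, and bind cadherins of the neighbouring cell. Those of type I (Cdh1 or E-cadherin, Cdh2 or N-cadherin, Cdh3 or P-cadherin) and type II (Cdh5 or VE-cadherin, Cdh6 or K-cadherin, Cdh11 or OB-cadherin) bind p120-catenin and β-catenin with their cytoplasmic tail, and α-catenin links this complex to actin. Cdh13 (T-cadherin) is held by a lipid anchor and Cdh16 (Ksp-cadherin, kidney-specific cadherin) has a short tail, so these 2 genes are not classical cadherins. In the kidney, Cdh2 and Cdh6 are known from the proximal tubule, Cdh1 mainly from more distal segments, Cdh16 from tubular epithelium, Cdh5 from endothelium and Cdh11 from mesenchymal cells.

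The cells came from male mice with floxed alleles of Tgfbr2, which encodes the TGF-β type II receptor TβRII, and with the Immorto-mouse transgene, a T antigen that is unstable at body temperature and lets cells divide in culture (H2ts6 in the labels). All 4 groups share this origin, and all were moved to the non-permissive temperature before the experiment. TβRII flox/flox PT cells (H2ts6;Tgfbr2fl/fl) kept the receptor, and TβRII-/- PT cells (H2ts6;Tgfbr2-/-) were made from such cells with adenoviral Cre in culture. Each genotype was sequenced untreated in complete medium and after 24 h of H2O2 in serum-free medium, and each of these 4 groups has 3 libraries. The labels give 200 mM H2O2, whereas the study's methods give the same figure in μM. H2O2 and loss of serum cannot be told apart, because no group had only 1 of them. With 1 line per genotype, the deletion and any other difference between the 2 lines cannot be told apart either. The labels do not say whether the 3 libraries of a group came from separate cultures, and the study's methods speak of biological replicates or independent experiments only for cell culture work in general, so a p measures the spread between libraries, which may be technical.

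Gene counts summed to between 15878808 and 20866260 in a library. Normalized counts below are scaled to a library of 17359318 counts. In untreated TβRII flox/flox cells replicate 1 was the highest and replicate 3 the lowest for Cdh2, Cdh3, Cdh6, Cdh11, Cdh16 and Tgfbr2 alike. Tgfbr2 RNA was at 9247, 8369 and 7562 normalized counts in the 3 untreated TβRII flox/flox libraries and at 6782, 6677 and 6358 in untreated TβRII-/- cells (log2 fold change −0.35 ± 0.07, SE), and with H2O2 at 13273, 13918 and 13706 against 7221, 7311 and 7117 (−0.92 ± 0.07). Every TβRII-/- library was lower, but none was near 0. A count over the whole transcript does not check the deleted part. Of 13 proximal tubule markers, Lrp2 and Aqp1 passed 1 RPKM (counts divided by transcript length in kilobases and by library size) in every group, whereas the transporters Slc22a6, Slc13a3 and Slc7a13 were at 0 in all 4 groups. The 13 summed to between 181 and 223 RPKM in untreated TβRII flox/flox cells, to between 124 and 132 in untreated TβRII-/- cells, and with H2O2 between 341 and 359 and between 139 and 146. Besides Lrp2 and Aqp1 only Ggt1 passed 1 RPKM, in untreated TβRII flox/flox cells. Of 7 tested, 6 were called as lower in untreated TβRII-/- cells and 0 as higher, beside 11.3% of all genes called as lower. With H2O2 the same 6 were lower, beside 12.9%. These were Slc5a2, Ggt1, Cubn, Slc5a12, Aqp1 and Lrp2, and Anpep was not called. Slc5a2 had no read in untreated TβRII-/- cells and passed the filter on low counts only through TβRII flox/flox cells. Its calls as lower are thus not independent of that filter.

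Of the 8 genes, 6 lie on chromosome 8. On GRCm38.p6 these are Cdh11 (chr8:102632095-102785493, minus strand), Cdh5 (chr8:104101613-104144504, plus), Cdh16 (chr8:104601915-104624396, minus), Cdh3 (chr8:106510852-106556911, plus), Cdh1 (chr8:106603350-106670247, plus) and Cdh13 (chr8:118140017-119324929, plus). Cdh3 and Cdh1 are neighbours with 46.4 kb between them. Cdh6 lies on chr15:13028699-13176407 (minus). The counts were made over the exons of 1 transcript per gene, ENSMUST00000000312 for Cdh1, ENSMUST00000080797 for Cdh3, ENSMUST00000034339 for Cdh5, ENSMUST00000036439 for Cdh6, ENSMUST00000075190 for Cdh11, ENSMUST00000117160 for Cdh13 and ENSMUST00000211903 for Cdh16. Cdh11 overlaps 3 counted genes on its own strand, with 94, 10 and 20 reads over all 12 libraries. In GENCODE M39 no other gene counted here overlaps any of the 8.

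Cdh6 is shown with the sequence before its start because it was the only 1 of these cadherin genes in the RefSeq promoter table for GRCm38.p6. The start site in that table is also the first base of the counted transcript. The 250 bases upstream, at chr15:13173676-13173925 on the minus strand, are printed 5′ to 3′ up to the base before the start site. The gene as annotated reaches 2482 bases further upstream than this window, which thus lies inside it, downstream of another annotated start. Capitals mark the matches to CANNTG, the E-box that Snail and Zeb repressors and other factors bind, and to GGGCGG, the GC box of Sp factors.
Cdh6: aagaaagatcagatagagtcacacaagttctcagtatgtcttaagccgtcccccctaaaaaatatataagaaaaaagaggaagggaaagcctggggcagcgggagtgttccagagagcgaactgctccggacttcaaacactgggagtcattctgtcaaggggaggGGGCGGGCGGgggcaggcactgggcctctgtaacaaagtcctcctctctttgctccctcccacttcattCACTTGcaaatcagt
Both strands were searched. CANNTG matched 1 time, from 15 bases upstream of the start site, and 66.2% of the 32851 promoter windows of the same length hold it. GGGCGG matched 2 times in an overlapping pair, from 84 and 80 bases upstream, and 32.7% of the windows hold it. There was no match to CACCTG (in 17.2% of the windows), which is 1 form of CANNTG, to the AP-1 motif TGANTCA (6.75%), to the Smad-binding CAGAC (42.2%) or to the TEAD-binding CATTCC (12.6%). These are matches of letters, and binding was not measured.

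To ask how cadherin RNA differs with TβRII deletion, the genotypes were compared without and with H2O2. A gene was called at a fold change of at least 1.5 with an unadjusted p under 0.01 in the quasi-likelihood test of edgeR, and adjusted p values are Benjamini-Hochberg over all 12974 genes. Between untreated genotypes 6 of the 7 tested cadherin genes were called (3 higher and 3 lower in TβRII-/- cells), beside 27.0% of all genes (15.7% higher and 11.3% lower). The median log2 fold change of the 7 was 0.01, that of all genes tested 0.01. With H2O2 the same 6 genes were called in the same directions, beside 29.8% of all genes (16.9% higher and 12.9% lower), with a median of −0.16 for the 7 and 0.02 for all genes. Cdh1 and Cdh13 passed the filter on low counts only through TβRII-/- cells, so their calls as higher are not independent of that filter. Where a gene needed 10 counts in every library, 4 of 5 tested cadherin genes were called untreated, beside 2639 of 11475 genes. With H2O2 it was also 4 of 5, beside 2958 of 11475. The comparisons share the lines and 1 estimate of the spread, but no library.

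**Figure D1:**
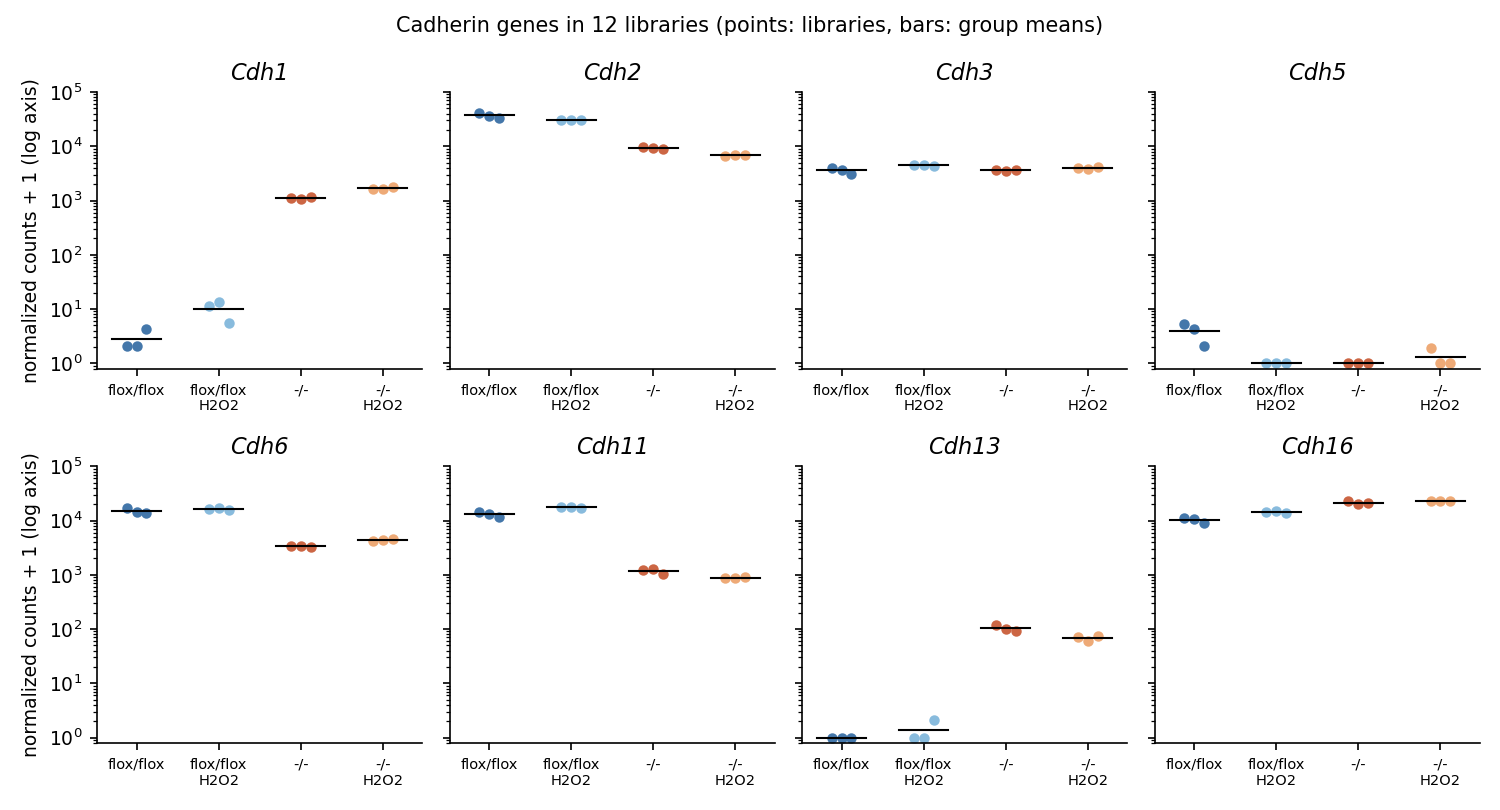
Normalized counts of the 8 cadherin genes, plus 1, on a log axis (y) in the 4 groups (x), where each point is 1 of 3 libraries and each black bar is the group mean. Cdh1 and Cdh13 had means of 1.80 and 0 in untreated TβRII flox/flox cells against 1112 and 103 in untreated TβRII-/- cells, and Cdh2, Cdh6 and Cdh11 were lower in every TβRII-/- library than in every TβRII flox/flox library.

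Cdh1, the cadherin of adherens junctions in most epithelia, was almost uncounted in TβRII flox/flox cells. Replicates 1, 2 and 3 of untreated TβRII flox/flox cells had 1, 1 and 3 reads, and those of untreated TβRII-/- cells 1069, 1080 and 1223. The ratio of Cdh1 counts between the untreated genotypes was 618 (95% exact interval 264 to 1904, counting error only; adjusted p = 2.02e-28, edgeR). With H2O2 the reads were 10, 12 and 4 in TβRII flox/flox cells and 1751, 2071 and 1778 in TβRII-/- cells, a ratio of 181 (123 to 278; adjusted p = 1.80e-29, edgeR). Every TβRII-/- library was far above every TβRII flox/flox library. Because the smaller counts are so few, counting error alone leaves the ratio open over these intervals, which leave out the spread between libraries. The size of the difference is less firm than its direction. A list of 11 markers of the distal nephron and collecting duct summed to between 8.64 and 8.73 RPKM in untreated TβRII flox/flox cells and to between 12.6 and 13.6 in untreated TβRII-/- cells, and with H2O2 to between 8.47 and 9.92 and between 9.05 and 9.68. Of the 11, only Tfcp2l1 had a group mean over 1 RPKM and carried the sums, and Calb1, Aqp2, Atp6v1g3 and Foxi1 were at 0 in all groups. Scnn1g, the other tested marker, had 8, 15 and 15 reads against 33, 24 and 30 in untreated cells and 20, 17 and 20 against 61, 75 and 43 with H2O2, and was called as higher in TβRII-/- cells in both comparisons (2.09-fold and 2.62-fold). The part of distal tubule genes or cells in the Cdh1 difference was not tested.

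Cdh3, the P-cadherin gene that neighbours Cdh1, was the exception among the 7. Its normalized counts were 4040, 3683 and 3015 in untreated TβRII flox/flox cells and 3634, 3563 and 3608 in untreated TβRII-/- cells, so the groups overlapped. The log2 fold change was 0.01 ± 0.07 (SE; 95% interval −0.13 to 0.15; adjusted p = 0.922, edgeR), which bounds the difference in either direction to well under the 1.5-fold limit. With H2O2 its counts were 4561, 4470 and 4239 against 3983, 3777 and 4110, with all 3 TβRII-/- libraries below the others, and a log2 fold change of −0.16 ± 0.07 (adjusted p = 0.0465, edgeR) that did not reach the fold limit. Without replicate 3 of untreated TβRII flox/flox cells the first log2 fold change was −0.11, also not called.

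Cdh2, the N-cadherin gene and the most abundant of the 8 per kilobase in TβRII flox/flox cells, fell in TβRII-/- cells. It lies on chr18:16588877-16809246 (minus strand, GRCm38.p6) and was counted on ENSMUST00000025166. Normalized counts were 40918, 36455 and 33359 in untreated TβRII flox/flox cells and 9652, 9371 and 8996 in untreated TβRII-/- cells. The groups were far apart, and Cdh2 was 3.95-fold lower (log2 fold change −1.98 ± 0.07, SE; adjusted p = 9.63e-22, edgeR). After H2O2 the counts were 29952, 31094 and 30405 against 6697, 6777 and 6875, which was 4.49-fold lower (−2.17 ± 0.07; adjusted p = 1.12e-22, edgeR). RNA of a bulk culture was measured, so fewer cells with Cdh2 RNA and less Cdh2 RNA per cell cannot be told apart, here and for the other genes.

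Cdh6, a type II cadherin first described in kidney, fell as well. The 3 untreated TβRII flox/flox libraries had 16719, 14602 and 13827 normalized counts and the 3 untreated TβRII-/- libraries 3396, 3383 and 3285. Every TβRII-/- library was lower, by 4.49-fold between the groups (log2 fold change −2.17 ± 0.07, SE; adjusted p = 4.72e-23, edgeR). With H2O2 they had 16142, 17034 and 15739 against 4116, 4293 and 4502, a difference of 3.79-fold (−1.92 ± 0.07; adjusted p = 9.09e-22, edgeR).

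Cdh11, the type II cadherin of mesenchymal cells, had the largest fall of the 3 genes. Untreated TβRII flox/flox cells had 14541, 13345 and 11684 normalized counts and untreated TβRII-/- cells 1204, 1276 and 1029, so that the lowest of the former stood far over the highest of the latter. Cdh11 was 11.3-fold lower (log2 fold change −3.50 ± 0.08, SE; adjusted p = 7.26e-27, edgeR). After H2O2 the counts were 17656, 18000 and 16930 against 867, 885 and 914, or 19.7-fold lower (−4.30 ± 0.08; adjusted p = 9.17e-29, edgeR). The summed level of a list of 9 fibroblast and stromal markers, nearly all of it Postn (periostin, a matrix protein), was also lower in TβRII-/- cells. It was between 98.7 and 122 RPKM in untreated TβRII flox/flox cells and between 3.16 and 4.04 in untreated TβRII-/- cells, and with H2O2 between 46.2 and 53.7 and between 1.86 and 2.22. Of the 9, only Postn passed 1 RPKM in any group, and 2 or 3 of the 9 were at 0 in each group. Of the 4 that were tested, Postn, Pdgfrb and Col1a1 were called as lower in TβRII-/- cells without and with H2O2, whereas Dcn, at 1, 4 and 3 against 14, 24 and 18 reads with H2O2, was called as higher there. Dcn passed the filter on low counts only through the H2O2-treated TβRII-/- libraries. Its calls as higher, here and for H2O2 in TβRII-/- cells below, are thus not independent of that filter. With H2O2 in TβRII flox/flox cells Postn fell (−1.15 ± 0.07, adjusted p = 4.10e-14, edgeR) while every Cdh11 count was higher. Col1a1 (0.43 ± 0.23), Pdgfrb (0.39 ± 0.38) and Dcn (0.92 ± 0.95) were above 0 there and not called. With H2O2 in TβRII-/- cells Postn (−1.16 ± 0.13) and Cdh11 (−0.40 ± 0.08) were both lower. Dcn was called as higher (1.55 ± 0.46), and Col1a1 (0.59 ± 0.32) and Pdgfrb (0.20 ± 0.84) were not called. Of 4 podocyte markers, Nphs1 was at 0 in every group while the list, carried by Synpo and Wt1, summed to between 30.5 and 32.8 in untreated TβRII flox/flox cells and to between 6.61 and 7.28 in untreated TβRII-/- cells. The part of other cell types in the Cdh11 difference was not tested.

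Cdh5, the cadherin of endothelial junctions, had 4, 3 and 1 reads in untreated TβRII flox/flox cells and 0 in every untreated TβRII-/- library. With H2O2 it had 0 reads in each TβRII flox/flox library and 1, 0 and 0 reads in TβRII-/- cells. Replicates 1 and 2 of untreated TβRII flox/flox cells were thus the only libraries with more than 1 read. All values were at or near the level of a few reads, where the size of a difference cannot be given with any precision. A count of 0 allows up to 3 reads in a library, counting error only. With no filter on low counts, Cdh5 had an unadjusted p of 0.0107 between untreated genotypes in edgeR (adjusted p = 0.0241) and was not called. For H2O2 in TβRII flox/flox cells its unadjusted p was 0.0127 (adjusted p = 0.0438, edgeR), also not called. Both rest on the 8 reads of untreated TβRII flox/flox cells. The endothelial markers Tie1 and Cldn5 were at 0 in all groups. The list of 10 endothelial markers, of which only Kdr and Egfl7 passed 1 RPKM in any group, summed to between 3.42 and 3.60 in untreated TβRII flox/flox cells and between 9.22 and 10.3 in untreated TβRII-/- cells, and with H2O2 to between 3.15 and 3.42 and between 4.95 and 5.44.

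Cdh13, the lipid-anchored T-cadherin known from vessels and heart, was counted almost only in TβRII-/- cells. No read was counted in untreated TβRII flox/flox cells, whereas untreated TβRII-/- cells had 114, 101 and 96. Against the 3 reads that a count of 0 allows in each library, Cdh13 was at least 31.8-fold higher (adjusted p = 3.23e-15, edgeR). With H2O2 there were 0, 0 and 1 reads in TβRII flox/flox cells and 76, 75 and 74 in TβRII-/- cells, a ratio of 189 with a 95% exact interval from 33.6 to 7507 (adjusted p = 2.37e-13, edgeR). Its level in TβRII-/- cells was low all the same, at 1.51 ± 0.21 RPKM (SD, n = 3) in untreated cells.

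Cdh16, the kidney-specific cadherin, was abundant in both genotypes and rose in TβRII-/- cells. The 3 untreated TβRII flox/flox libraries had 11242, 10553 and 9122 normalized counts and the 3 untreated TβRII-/- libraries 23032, 20390 and 20901. The groups did not overlap, and Cdh16 was 2.08-fold higher (log2 fold change 1.06 ± 0.07, SE; adjusted p = 2.78e-14, edgeR). After H2O2 the difference was smaller, with 14558, 15131 and 13658 against 22726, 23163 and 23107 and a fold change of 1.59 (0.67 ± 0.07; adjusted p = 9.49e-10, edgeR). Each of the 13 transcripts of Cdh16 with enough counts gave a log2 ratio between 1.01 and 1.10 for the untreated genotypes. For Cdh11 these ratios were between −3.57 and −3.47 over 3 transcripts, for Cdh2 between −2.04 and −1.97 over 3 and for Cdh6 between −2.17 and −2.15 over 2. Transcripts of 1 gene share reads, so they are not separate measurements.

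**Figure D2:**
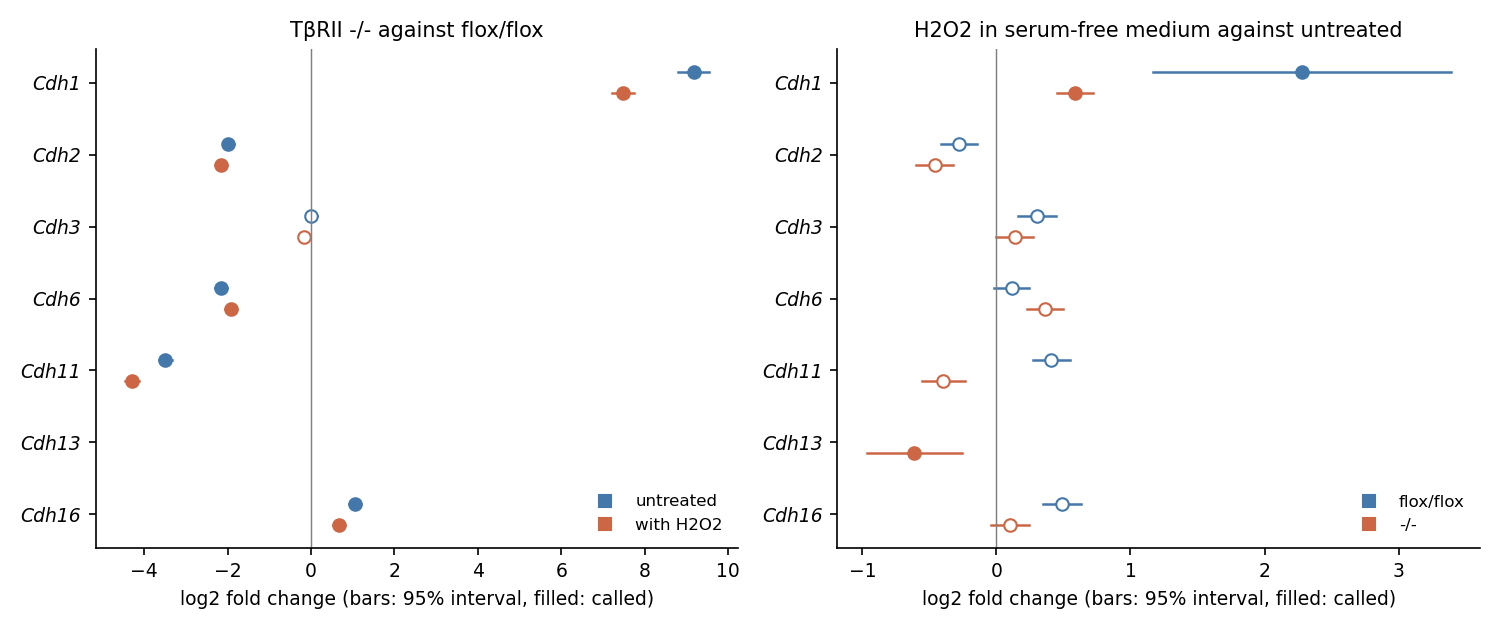
Log2 fold changes (x) of the tested cadherin genes (y) for TβRII-/- against TβRII flox/flox cells (left, untreated and with H2O2) and for H2O2 against no treatment (right, each genotype), with 95% intervals from edgeR; filled points were called. Cdh13 is drawn only where both groups had reads in every library, Cdh5 was not tested, and only Cdh3 lies near 0 in both genotype comparisons.

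To compare levels between genes, counts were divided by transcript length. In untreated TβRII flox/flox cells the order in RPKM (mean ± SD, n = 3) was Cdh2 with 432 ± 44.5, Cdh16 with 197 ± 20.7, Cdh11 with 135 ± 14.6, Cdh6 with 106 ± 10.6 and Cdh3 with 46.3 ± 6.73. Below them Cdh5 (0.041 ± 0.023) and Cdh1 (0.023 ± 0.016) could not be ordered, since their libraries overlapped, and Cdh13 was at 0. Cdh11 and Cdh6 were close, with the lowest Cdh11 library at 119 and the highest Cdh6 library at 118. In untreated TβRII-/- cells Cdh16 led with 411 ± 26.8, followed by Cdh2 with 109 ± 3.85, Cdh3 with 46.6 ± 0.47, Cdh6 with 23.7 ± 0.43, Cdh1 with 14.5 ± 0.82, Cdh11 with 11.9 ± 1.30 and Cdh13 with 1.51 ± 0.21, while Cdh5 had no read. Among these neighbours Cdh1 and Cdh11 came closest, with 13.6 in the lowest Cdh1 library and 13.0 in the highest Cdh11 library.

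With H2O2 the leading places were kept in each genotype. In TβRII flox/flox cells Cdh2 stood at 357 ± 6.73 RPKM, Cdh16 at 277 ± 14.2, Cdh11 at 179 ± 5.57, Cdh6 at 115 ± 4.68, Cdh3 at 57.2 ± 2.15 and Cdh1 at 0.118 ± 0.052, with no overlap between the libraries of these 6. Cdh13 and Cdh5, with 1 read and none, could not be ordered. In TβRII-/- cells Cdh16 stood at 441 ± 4.55, Cdh2 at 79.4 ± 1.04, Cdh3 at 51.2 ± 2.18, Cdh6 at 30.4 ± 1.36, Cdh1 at 21.7 ± 1.10, Cdh11 at 9.06 ± 0.24 and Cdh13 at 0.991 ± 0.112, again without overlap, and Cdh5 had 1 read.

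The makeup of the cadherin RNA therefore differed between genotypes. Of the summed level of the 8 genes in untreated TβRII flox/flox cells, Cdh2 held 47.1% ± 0.50 (SD, n = 3), Cdh16 21.5% ± 0.46, Cdh11 14.7% ± 0.18, Cdh6 11.6% ± 0.32 and Cdh3 5.04% ± 0.25. In untreated TβRII-/- cells Cdh16 held 66.4% ± 1.10, Cdh2 17.7% ± 0.56, Cdh3 7.55% ± 0.31, Cdh6 3.83% ± 0.16, Cdh1 2.34% ± 0.16, Cdh11 1.93% ± 0.22 and Cdh13 0.244% ± 0.022. The share of Cdh3 differed although its level did not pass the test, because a share depends on the sum. That sum was 917 ± 96.0 RPKM in untreated TβRII flox/flox cells and 618 ± 30.8 in untreated TβRII-/- cells, and every library of the former was higher. The sum over Cdh1, Cdh2, Cdh3, Cdh5, Cdh6 and Cdh11, the genes of types I and II, was 719 ± 75.8 against 206 ± 4.95. With H2O2 it was 708 ± 16.04 against 192 ± 5.18. These sums and shares are descriptions without a test.

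**Figure D3:**
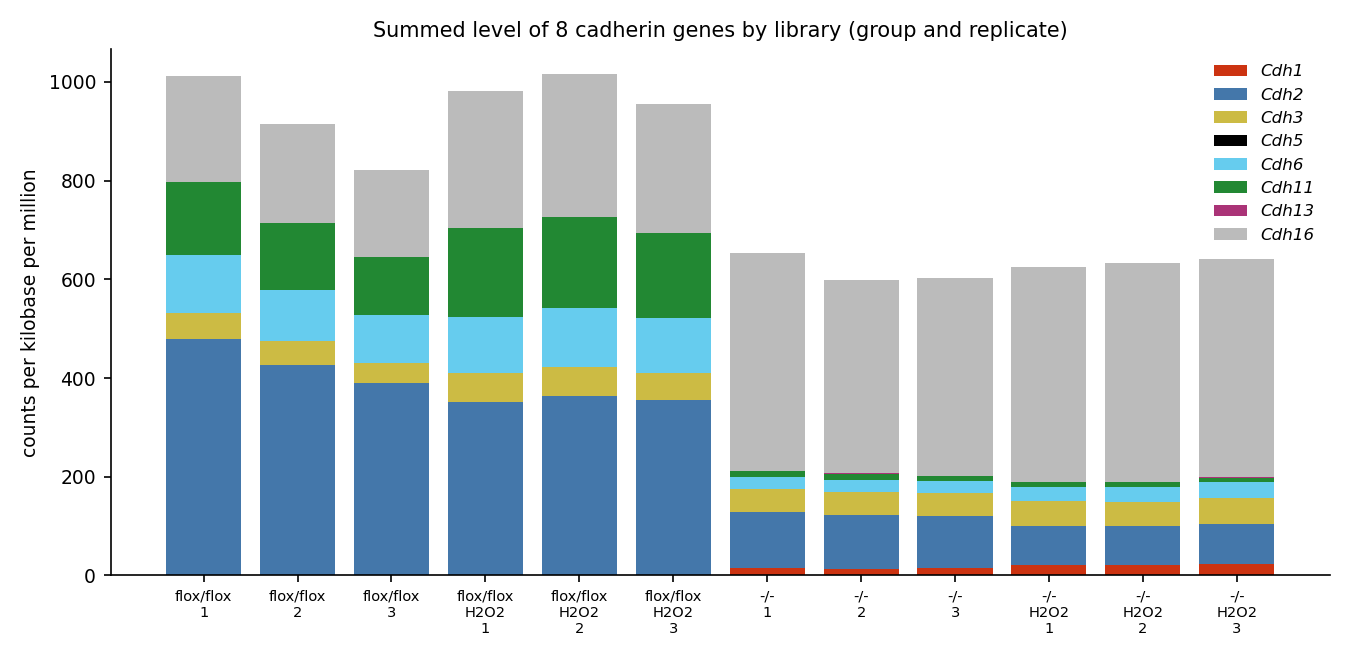
Stacked level of the 8 cadherin genes in RPKM (y, from 0) in each of the 12 libraries (x, by group and replicate). Cdh2 was the largest segment in the 6 TβRII flox/flox libraries and Cdh16 in the 6 TβRII-/- libraries, and Cdh1 formed a visible segment only in the latter; Cdh5 and Cdh13 were too low to see.

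H2O2 in serum-free medium was compared with no treatment within each genotype. In TβRII flox/flox cells 1 of the 7 tested genes was called, beside 7.56% of all genes (5.13% higher and 2.44% lower). This was Cdh1, with 1, 1 and 3 reads without and 10, 12 and 4 with H2O2. The groups did not overlap, and the ratio was 5.11 (95% exact interval 1.93 to 17.1; adjusted p = 0.00166, edgeR). A level of some 10 reads per library is low, and the call was not made when only the groups compared were fitted, where Cdh1 failed the filter. Cdh13, with 1 read over the 6 libraries, cannot be given a size (unadjusted p = 0.270, edgeR), and the other 5 did not reach the fold limit in TβRII flox/flox cells. Cdh16 had a log2 fold change of 0.49 ± 0.07 (adjusted p = 2.36e-06, edgeR), Cdh11 0.41 ± 0.07, Cdh3 0.31 ± 0.07 and Cdh2 −0.28 ± 0.07. Cdh6 had 0.12 ± 0.07, and its groups overlapped. The median of the 7 was 0.41 and that of all genes 0.01.

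In TβRII-/- cells 2 of the 7 were called with H2O2, beside 7.77% of all genes (4.25% higher and 3.52% lower). Cdh1 rose from 1118, 1046 and 1171 to 1616, 1628 and 1768 normalized counts. The groups did not overlap, but the fold change of 1.503 (log2 0.59 ± 0.07; adjusted p = 2.86e-08, edgeR) stood at the limit. Cdh1 was called in 9 of 19 alternative fits, with a log2 fold change from 0.54 to 0.63. Its call was lost with sums over transcripts, with only these 2 groups fitted, without any 1 of the 6 TβRII flox/flox libraries, without replicate 2 of the untreated and without replicate 3 of the H2O2-treated TβRII-/- libraries. Cdh13 fell from 119, 97.8 and 91.9 to 70.2, 59.0 and 73.6 normalized counts, again without overlap, by 0.61 ± 0.18 on the log2 scale (1.53-fold; adjusted p = 0.00840, edgeR). Its call held in 16 of 19 alternative fits and was lost with sums over transcripts, without replicate 1 of the untreated and without replicate 2 of the H2O2-treated TβRII-/- libraries, where the smallest size was −0.50. The other 5 stayed under the fold limit, with log2 fold changes of −0.46 ± 0.07 for Cdh2, −0.40 ± 0.08 for Cdh11, 0.36 ± 0.07 for Cdh6, 0.14 ± 0.07 for Cdh3 and 0.10 ± 0.07 for Cdh16. The median of the 7 was 0.10 and that of all genes 0.02.

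Whether the response to H2O2 differed between genotypes was tested by the interaction, called at an adjusted p under 0.05. It was called for 2 of the 7, both with a lower response in TβRII-/- cells, beside 10.2% of all genes (3.90% higher and 6.28% lower). For Cdh11 the normalized counts were higher with H2O2 in every TβRII flox/flox library and lower in every TβRII-/- library, and the difference of the responses was −0.81 ± 0.11 on the log2 scale (adjusted p = 5.64e-06, edgeR). For Cdh16 the response was 0.49 in TβRII flox/flox and 0.10 in TβRII-/- cells, a difference of −0.39 ± 0.10 (adjusted p = 0.0124, edgeR). Without replicate 1 of the untreated TβRII-/- libraries the latter had an adjusted p of 0.0523. For Cdh1 the difference was −1.69 ± 0.58 (adjusted p = 0.0595, edgeR), and it was called in 3 of 18 alternative fits. Leaving out replicate 3 of untreated TβRII flox/flox cells gave it an adjusted p of 0.0428, and replicate 3 of the same cells with H2O2 0.0255. The differences were 0.24 ± 0.10 for Cdh6, −0.19 ± 0.10 for Cdh2 and −0.17 ± 0.10 for Cdh3, which did not pass. Leaving out replicate 1 of untreated TβRII flox/flox cells raised the number called to 4, with Cdh2 and Cdh3, as did leaving out replicate 3, with Cdh1 and Cdh6. For Cdh13 the difference cannot be given any size, since TβRII flox/flox cells had 1 read in all.

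The genes that work with cadherins were followed in 5 lists. The adherens junction linkers hold the catenins, which bind cadherin tails, and the nectins, adhesion proteins of the same junction. Between untreated genotypes 5 of 14 tested linkers were called (35.7%, beside 27.0% of all genes), 2 higher and 3 lower in TβRII-/- cells, and the median log2 fold change was −0.05 beside 0.01 for all genes. With H2O2 4 of 14 were called (28.6%, beside 29.8% of all genes), 1 higher and 3 lower. Neither share was far from that of all genes. The catenins that bind cadherin tails in epithelia were not among them. Untreated, Ctnnb1 (β-catenin) had −0.18 ± 0.06 (SE), Ctnna1 (α-catenin, which links to actin) 0.15 ± 0.06 and Ctnnd1 (p120-catenin) −0.04 ± 0.06. The catenin Ctnnd2, known from neurons, had 50, 57 and 48 reads in untreated TβRII flox/flox cells and 2, 1 and 1 in TβRII-/- cells. It passed the filter on low counts only through TβRII flox/flox cells. Nectin4 rose (1.58 ± 0.17, adjusted p = 8.74e-10, edgeR) as did Nectin1 (0.67 ± 0.11, adjusted p = 1.86e-06), and Nectin3 fell (−1.20 ± 0.07, adjusted p = 7.06e-16). Vcl, the gene of the actin linker vinculin, was the remaining one, with −0.60 ± 0.07, and its call was lost without replicate 1 of the untreated TβRII flox/flox or replicate 3 of the untreated TβRII-/- libraries.

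Repressors that bind E-boxes, among them those known to repress Cdh1, moved in both directions. Of 9 tested, 7 were called between untreated genotypes (77.8%, beside 27.0% of all genes), 3 higher and 4 lower, with a median log2 fold change of −0.56 beside 0.01 for all genes. Zeb2 fell by 1.80 ± 0.11 on the log2 scale (adjusted p = 3.72e-15, edgeR), Snai2 by 1.40 ± 0.18 (adjusted p = 6.16e-08) and Zeb1 by 0.88 ± 0.07 (adjusted p = 1.60e-13). Twist2 rose (1.14 ± 0.13, adjusted p = 3.82e-09, edgeR). Snai3 was called as higher, but at 13, 10 and 2 reads against 17, 29 and 18, and in 13 of 19 alternative fits. Its call was lost with sums over transcripts and without replicate 2 or 3 of the untreated and replicate 2 of the H2O2-treated TβRII flox/flox libraries, or replicate 2 of the untreated and replicate 3 of the H2O2-treated TβRII-/- libraries. With H2O2 6 of 9 were called (66.7%, beside 29.8% of all genes), 2 higher and 4 lower, with a median of −0.50 beside 0.02 for all genes.

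Activators of epithelial genes moved in 1 direction. Of 9 tested, 7 were called and all 7 were higher in untreated TβRII-/- cells, beside 15.7% of all genes called as higher, and the median log2 fold change was 1.21 beside 0.01 for all genes. With H2O2 6 of 9 were higher, beside 16.9% of all genes, with a median of 1.34 beside 0.02. Grhl2, a grainyhead-like factor known to act on Cdh1, had 1, 2 and 2 reads in untreated TβRII flox/flox cells and 156, 154 and 209 in untreated TβRII-/- cells. Ovol1 had 3, 2 and 0 against 33, 35 and 35 reads and Grhl3 7, 4 and 8 against 28, 49 and 59. The Ets factor Ehf, at 276, 278 and 309 against 791, 844 and 956 reads, rose by a log2 fold change of 1.46 ± 0.08 (adjusted p = 1.01e-16, edgeR). Levels of Grhl2, Grhl3 and Ovol1 were low, at or under 1.99 RPKM in every group. These genes passed the filter on low counts only through TβRII-/- cells, so their calls as higher are not independent of it.

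Of 12 tested genes of cadherin processing and turnover, 4 were called between untreated genotypes (33.3%, beside 27.0% of all genes). All 4 were lower, beside 11.3% of all genes, and the median log2 fold change was −0.40 beside 0.01 for all genes. With H2O2 7 of 12 were lower, beside 12.9% of all genes, with a median of −0.68 beside 0.02. Mmp14, a membrane-bound metalloproteinase, fell by 1.48 ± 0.07 on the log2 scale (adjusted p = 3.13e-19, edgeR), Furin, which cleaves cadherin precursors, by 0.87 ± 0.07 (adjusted p = 3.69e-12) and Adam10, which sheds cadherin ectodomains, by 0.61 ± 0.06 (adjusted p = 1.96e-10). Adam10 was near the fold limit, and its call was lost without the same 2 libraries as that of Vcl, replicate 1 of the untreated TβRII flox/flox and replicate 3 of the untreated TβRII-/- libraries. Mmp9 had 35, 23 and 24 reads in untreated TβRII flox/flox cells and 3, 0 and 3 in TβRII-/- cells. It passed the filter on low counts only through TβRII flox/flox cells. Among 15 other cadherin genes only 2 passed the filter. Untreated, Cdh24 had a log2 fold change of −0.57 ± 0.07 and Cdh17 of 0.14 ± 0.29, both under the fold limit. With H2O2 Cdh24 was called as lower (−0.75 ± 0.07, adjusted p = 8.23e-11, edgeR) and Cdh17 as higher (0.71 ± 0.24, adjusted p = 0.0111), the latter not with DESeq2, with sums over transcripts, or without replicate 1 or 3 of the TβRII flox/flox or replicate 2 or 3 of the TβRII-/- libraries.

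**Figure D4:**
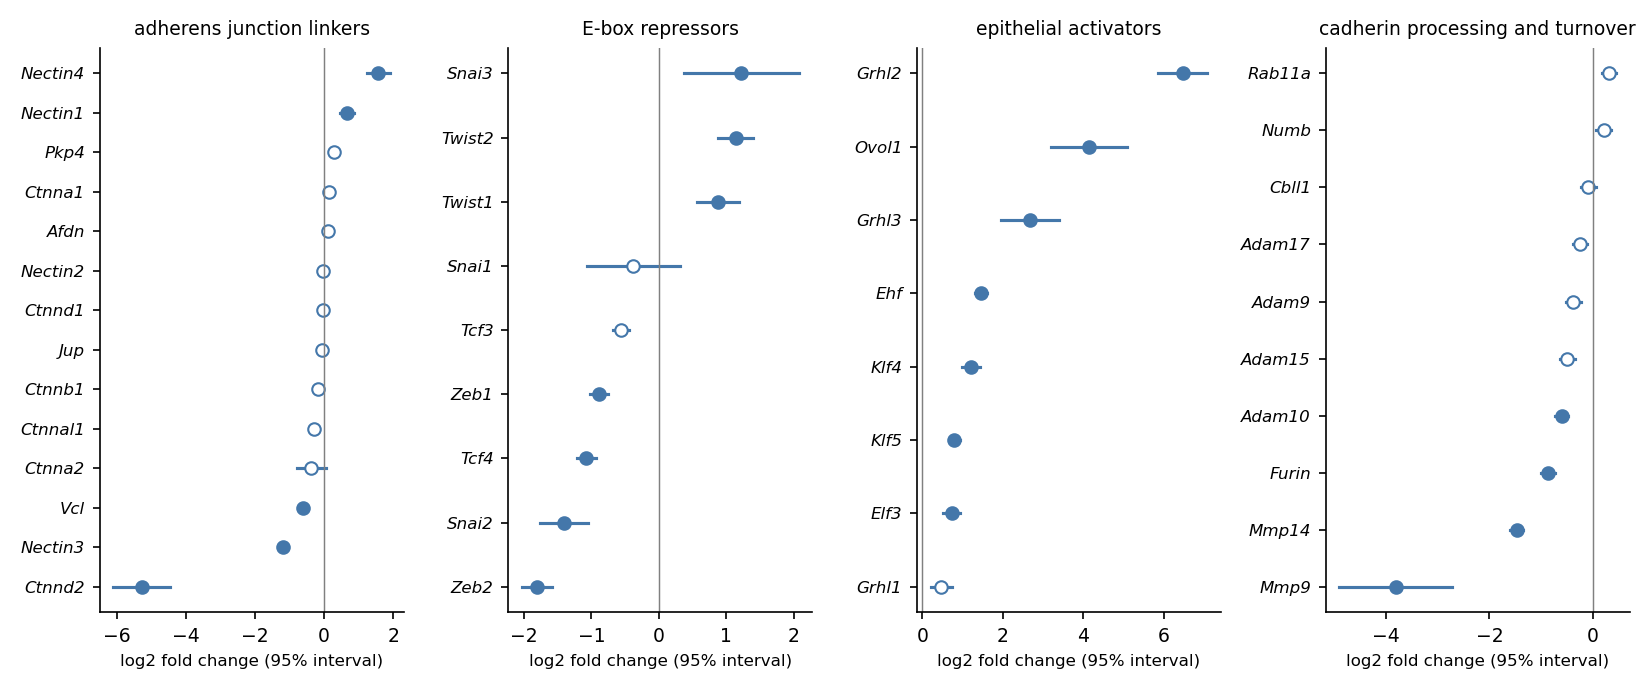
Log2 fold changes (x) between untreated TβRII-/- and TβRII flox/flox cells for tested genes (y) of 4 lists of genes that work with cadherins, with 95% intervals from edgeR; filled points were called and a few tested genes are not drawn. All 7 called activators lie right of 0 and all 4 called processing genes left of it; the values of Ctnnd2, Grhl2, Ovol1 and Mmp9 rest on few reads in 1 group.

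For H2O2 4 of the 46 tested genes of the 5 lists were called in each genotype (8.7%, beside 7.56% of all genes in TβRII flox/flox and 7.77% in TβRII-/- cells). In TβRII flox/flox cells Ctnnd2, Ctnna2 and Ehf were lower and Snai3 higher with H2O2, and in TβRII-/- cells Ctnna2 and Ehf were lower and Klf4 and Cdh17 higher. Ctnna2 lost its call in TβRII flox/flox cells without replicate 1 of the H2O2-treated libraries. Among list genes called for the interaction, Nectin3, with the lower response in TβRII-/- cells, kept this call in all 19 alternative fits. The calls of Ctnna1 and Jup (plakoglobin, a relative of β-catenin) as higher held in 5 of 19, and those of Snai3 and Adam15 as lower in 9 of 18 and 14 of 19.

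Genes whose pattern was most like that of each cadherin gene were found by the root mean square difference of log2 values over the 12 libraries, each centred on its mean, among 11036 genes. They differ in how close they came. Prkcd was 0.0440 from Cdh16 and Lamp1 0.0575 from Cdh3, while Abi3bp was 0.0907 from Cdh6 and Scube3 0.119 from Cdh2. Next after these came Pxylp1 (0.0805) for Cdh16, Slc37a3 (0.0578) for Cdh3, Tnc (0.125) for Cdh6 and Tg (0.136) for Cdh2. Those nearest Cdh11 were the genes of the matrix proteins fibronectin (Fn1, 0.188) and versican (Vcan, 0.196). For Cdh1 the nearest were Cldn4, a tight junction claudin, and Lgi2 (0.643 and 0.652), and for Cdh13 Bdh1 and Gbp8 (0.358 and 0.404), at distances that counts near 0 in TβRII flox/flox cells make coarse. Cldn4 had means of 0, 3.89, 837 and 873 normalized counts in untreated and H2O2-treated TβRII flox/flox and untreated and H2O2-treated TβRII-/- cells.

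Because 6 of the genes share chromosome 8, the 20 nearest tested genes of each (10 on each side) were set beside them. The neighbours were often far away. They started between −8738 and 674 kb from the start of Cdh16, and between −7280 and 2008 kb from that of Cdh11. The range was −2543 to 18196 kb for Cdh6, −4336.5 to 7364 kb for Cdh2, −1251 to 1770 kb for Cdh13 and −594 to 458 kb for Cdh1. The 20 neighbours of Cdh16 had a median log2 fold change of 0.75 between untreated genotypes beside 1.06 for Cdh16 itself, and 0.71 beside 0.67 with H2O2. Cdh1 and Cdh3 share the same 20 neighbours, whose median was −0.67, with 12 of 20 past 1.5-fold, whereas Cdh3 itself was at 0.01 and Cdh1 was far above. The 20 neighbours of Cdh11, also those of Cdh5, had a median of 0.51 beside −3.50 for Cdh11. Medians were −0.20 around Cdh13, 0.25 around Cdh6 and −0.16 around Cdh2, beside −0.11 for 669 genes of chromosome 8 and 0.01 for all genes. The part of the surrounding region in the difference of Cdh16 was not tested.

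Along chromosome 8 the direction of the neighbours changed between Cdh16 and Cdh3. All 24 tested genes that start between −0.38 and 0.73 Mb from the start of Cdh16 were higher in untreated TβRII-/- cells (median log2 fold change 0.79), and 31 of 34 that start between 0.75 and 1.81 Mb from it were lower (median −0.51). With H2O2 the medians were 0.71 and −0.51. Cdh3 and Cdh1 start at 1.91 and 2.0 Mb, beyond the second stretch. The boundary was set after the values had been seen, so this is a description without a test.

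**Figure D5:**
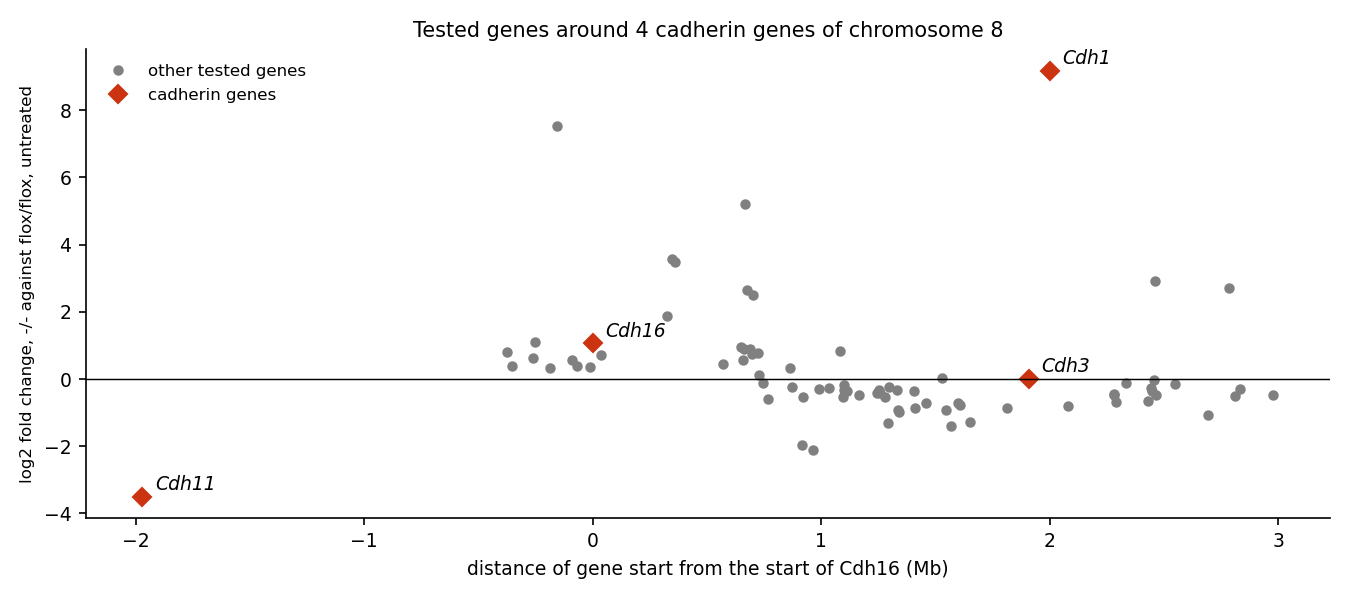
Log2 fold change between untreated TβRII-/- and TβRII flox/flox cells (y) of tested genes by the distance of their start from that of Cdh16 in Mb (x), with cadherin genes as diamonds. Genes between −0.38 and 0.73 Mb lie above 0 and most of those from 0.75 Mb on lie below it, while Cdh11 lies far below 0, Cdh1 far above it and Cdh3 close to it.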

How the data were processed

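RNA-seq was analysed in 12 libraries of conditionally immortalized PT cells, with groups and replicate numbers from the labels. The authors trimmed reads with fastp, used STAR for alignment (GRCm38.p6, GENCODE M23) and featureCounts for counting (versions not given in the sources used here). Deposited values are raw whole-number counts per transcript, in which reads shared by several transcripts are counted on each. Gene counts had been assumed in the design, so the transcript with the highest total stood for a gene. Of 106332 transcripts, 104870 were matched by Ensembl identifier to GENCODE M39, and the other 1462, with 1.20% to 1.26% of a library's counts, were left out. Transcript lengths are those of M39 and coordinates those of a RefSeq table of GRCm38.p6. Whether the counting used strand is not given in the sources used here.

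Counts were tested in R 4.3.3 with edgeR 4.0.16 (TMM, factors from 0.946 to 1.07, filterByExpr on the 4 groups, glmQLFit and glmQLFTest) in 1 model with a mean per group over all 12 libraries. The standard error is the log2 fold change divided by the square root of F. Ratios of few reads have exact (Clopper-Pearson) 95% intervals scaled by library size, which cover counting error only, and the floor for a count of 0 is 3 reads per library. Tables were joined with Python 3.11.15. Every pair of replicates differed by more than sampling noise (chi-square per gene from 3.65 to 12.7). The tests were checked on simulated counts with known changes. Alternatives were DESeq2 1.42.0, its size factors in edgeR, other filters, a replicate block, only the groups compared, sums over transcripts, another call rule and leaving out each library. Besides the 8, genes were named by rule: in each list the called genes with the 4 largest changes, 7 genes chosen by name, and for each tested cadherin gene the 2 of most similar pattern. Vcl, Jup, Ctnna2, Klf4, Adam15, Cdh17, Cdh24 and the marker genes were named after their values were seen. Members and lists were chosen with earlier results of these data known. Some genes are not reported here.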

Additional observations from a re-analysis of the deposited data

Results flagged for a closer look

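The response of Cdh11 to H2O2 in serum-free medium differed between genotypes by −0.81 on the log2 scale (edgeR interaction, adjusted p = 5.64e-06), with 3 of 3 TβRII flox/flox libraries higher than untreated and 3 of 3 TβRII-/- libraries lower. That of Cdh16 differed by −0.39 (adjusted p = 0.0124), with a smaller response in TβRII-/- cells, and its adjusted p was 0.0523 without replicate 1 of the untreated TβRII-/- libraries. Both were noted because the test of the difference itself passed its limit.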

How the results depend on the processing

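Of 681 values recomputed for single cadherin genes, 659 kept their direction and side of the limit, 14 lost the call, 6 gained it and 2 changed sign. The 2 were those of Cdh3 between untreated genotypes, −0.000100 with sums over transcripts and −0.11 without replicate 3 of the untreated TβRII flox/flox libraries, with a range from −0.11 to 0.10 when 1 library was left out, and none was called. Between genotypes 6 genes were called with each library left out and with DESeq2, and 4 where a gene needed 10 counts in each library, which removes Cdh1 and Cdh13. With that filter edgeR called 0 cadherin genes for H2O2 in TβRII flox/flox cells, beside 815 of 11475 genes, and 2 list genes in place of 4. In TβRII-/- cells it called 0, beside 708 of 11475. With only the groups compared, 0 were called in TβRII flox/flox cells, beside 934 of 12247 genes, and 1 for TβRII-/- cells, beside 1010 of 12641. With sums over transcripts 0 were called for TβRII-/- cells, beside 978 of 13536. In the settings with 0 called, 4 of 5, 3 of 5, 4 of 5 and 5 of 7 in turn had an unadjusted p under 0.05 in edgeR. That share was not counted for all genes. DESeq2 called 1 for H2O2 in TβRII flox/flox cells and 2 in TβRII-/- cells. Without each library in turn, between 1 and 2 were called for H2O2 in TβRII-/- cells and between 1 and 4 for the interaction. Interaction calls in the lists were 7, but 3 with sums over transcripts and between 2 and 8 without 1 library. The cause was not tested, apart from genes removed by a filter.

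With the replicate number as a block no cadherin gene gained or lost a call, and 4 list genes were called for the interaction. The numbers did not pair the libraries, since correlations of same-numbered libraries were between −0.215 and 0.102, and every library correlated best with its own number in 1 of 6 pairs of groups. Depth limits Cdh1 and Cdh13 in TβRII flox/flox cells and Cdh5 everywhere, where a few reads set the value.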
